A study of Drosophila melanogaster with 2 samples.

Results

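A group of 254 binding peaks of the zinc finger protein Asciz lay on the core promoters of protein-coding genes in Drosophila melanogaster embryos. Each had its summit from -99 to 49 bp of an annotated transcription start site (TSS), the nearest one, counted along the gene with the TSS as 0. That TSS belonged to a protein-coding gene, and no protein-coding TSS of the opposite strand lay within 500 bp of the summit. The peaks came from the authors' reproducible list, a cut on agreement between the libraries whose lowest pooled signal was 127. Within that list position alone chose these peaks, and no signal value was used further. They made up 5.0% of the 5085 reproducible peaks (Wilson 95% interval 4.43% to 5.63%, over peaks of a single list) and were assigned to 251 genes. MEP-1, Sarm and pyd were assigned 2 such peaks each, at different TSSs, though at 1 of those of MEP-1 another gene's TSS was equally near. The material was chromatin of whole embryos of mixed sex, 0 to 24 h old, from a transgenic line that stably expresses Asciz (CG14962) with GFP at its C terminus, precipitated with an antibody against GFP and sequenced (ChIP-seq). The single group held 2 libraries, replicates 1 and 3, which the labels describe as biological replicates from separate biosamples. No other genotype, treatment or stage was included, the promoter driving the transgene is not given in the labels, and whole embryos mix all cell types and stages of embryogenesis. The files give peak lists with a signal per peak and no read counts, so the depth of the libraries is not known and no signal carries a counting error. The control alignment, shared by both libraries per the deposited file listings, is not analysed here. Signal at these promoters in embryos without the tagged protein therefore cannot be set beside the values below.

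The core promoter is the stretch of DNA round the TSS on which RNA polymerase II and the general transcription factors assemble. In flies, different genes use different core promoter elements. Many developmental genes carry the initiator, often with a TATA box. Broadly expressed genes often carry the DNA replication-related element (DRE), Motif 1 or Motif 6, and genes of the ribosome and of translation carry a pyrimidine-rich TCT initiator. The known target of Asciz is ctp, which encodes the dynein light chain LC8.

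The DNA under the strongest of these peaks varied in A+T content and in whether it held the core of the DRE, and 8 of the 15 highest are shown. Each is 61 bp of the release 6 assembly (dm6) on the strand of the gene, centred on the summit. Capitals mark the summit base and every TATCGA or its reverse complement TCGATA, the core of the DRE. The stretches are X:2703863-2703923 at Ugalt, 3L:19590585-19590645 at CG14100, 3R:31404617-31404677 at PNPase, 2L:4448694-4448754 at MFS18, 2L:9521088-9521148 at Oatp30B, X:4686885-4686945 at Pp2C1, 3R:29220104-29220164 at eEF1gamma and 3L:12125160-12125220 at yps. Oatp30B and eEF1gamma lie on the plus strand and the others on the minus strand. The sequences of Ugalt, CG14100, PNPase, MFS18 and Oatp30B held no TATCGA and between 70.5% and 77.0% A+T. Those of Pp2C1, eEF1gamma and yps held the word and between 42.6% and 55.7% A+T. The same stretch at Hsp83 (52.5% A+T), TRAM and CG10413 (57.4% each), not printed here, held no TATCGA and less A+T than those of Ugalt, CG14100, PNPase, MFS18 and Oatp30B. The strong peaks were thus not all either rich in A+T or marked by the word. At eEF1gamma and yps the summit base itself fell within such a word.
Ugalt: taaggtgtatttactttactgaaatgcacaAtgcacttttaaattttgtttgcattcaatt
CG14100: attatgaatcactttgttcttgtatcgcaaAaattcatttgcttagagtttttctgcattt
PNPase: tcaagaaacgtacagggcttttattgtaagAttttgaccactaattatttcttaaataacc
MFS18: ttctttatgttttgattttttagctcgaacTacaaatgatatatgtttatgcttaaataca
Oatp30B: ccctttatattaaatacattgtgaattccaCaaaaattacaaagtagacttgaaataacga
Pp2C1: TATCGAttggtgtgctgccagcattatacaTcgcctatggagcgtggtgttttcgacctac
eEF1gamma: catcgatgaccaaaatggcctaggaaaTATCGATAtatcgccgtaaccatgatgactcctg
yps: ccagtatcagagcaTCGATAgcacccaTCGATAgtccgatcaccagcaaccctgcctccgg

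At the ribosomal protein genes the letters at the TSS are shown, since a TCT word was what most of them shared. Each stretch is 41 bp on the gene's strand centred on the TSS, with every match to one of the TCT words (CCTTTC or CCTTTT, or else TCTTTC or TCTTTT) that started from -10 to 10 bp of the TSS in capitals. The stretches are 3L:2587436-2587476 (plus), 3R:25685031-25685071 (minus), X:765110-765150 (minus), X:9554603-9554643 (plus), 4:67187-67227 (minus), 2L:13395111-13395151 (minus) and X:19598011-19598051 (plus), all in dm6. RpL24 and RpS10b are shown because they had the highest signals of the family, and neither held a match in that window. The other 5 were picked as members that held one, so they do not show how common a match was in the family. RpS4, RpL30 and RpL11 had higher signals than these 5 and held a match too, but their sequences are not printed here. Other members with higher signals than RpS3A and RpL27, among them RpL37A and RpL9, are also not printed. RpL8 held 3 matches, starting at -3, 2 and 7, and RpL27 held 2, starting at 4 and 9.
RpL8: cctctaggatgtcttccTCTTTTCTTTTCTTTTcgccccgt
RpL27: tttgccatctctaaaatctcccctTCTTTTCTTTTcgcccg
RpL22: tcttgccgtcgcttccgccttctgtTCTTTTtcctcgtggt
RpS28b: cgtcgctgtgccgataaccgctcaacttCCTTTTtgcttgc
RpS3A: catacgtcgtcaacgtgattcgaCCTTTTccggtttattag
RpL24: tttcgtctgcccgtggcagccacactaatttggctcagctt
RpS10b: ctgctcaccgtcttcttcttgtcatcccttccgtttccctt

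The strongest of the 254 peaks lay at genes of varied function. Signal is given in 2 ways: as the authors' pooled signal in the reproducible list, and as the relative signal, which is the signal of the strongest overlapping region in a library divided by that library's median over all reproducible peaks. At Ugalt, a UDP-galactose transporter gene (FBgn0024994, peak X:2703696-2704073, between genes), replicate 1 gave a relative signal of 10.5 and replicate 3 one of 11.7 (mean 11.1 ± 0.826, SD, n = 2), and the pooled signal of 2396 was 11.7 times the median of all peaks. The uncharacterised gene CG14100 (FBgn0036889, 3L:19590428-19590805) followed with 10.1 and 9.50 in replicates 1 and 3 (9.82 ± 0.453, SD, n = 2). PNPase, which encodes the RNA-degrading enzyme polynucleotide phosphorylase (FBgn0039846, 3R:31404490-31404823, summit in an intron), had 7.11 and 8.23 (7.67 ± 0.789, SD, n = 2). These 3 peaks stood above all other members in both libraries, and the order of Ugalt and CG14100 was the same in both.

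Next came MFS18, a transporter gene, with 6.18 in replicate 1 and 5.58 in replicate 3, and Alg3, a mannosyltransferase gene of N-glycan synthesis, with 4.57 and 5.19. The uncharacterised CG5335 had 4.05 and 5.06. Pp2C1, a protein phosphatase gene, had 4.39 and 4.23. Among these 4 peaks the ranges of the libraries of Alg3 and CG5335 overlapped, as did those of CG5335 and Pp2C1, so the place of CG5335 between them does not hold beyond the spread between libraries. Alg3 was above both CG5335 and Pp2C1 in each library. Hsp83, the gene of the Hsp90 chaperone, had 3.45 and 4.24, and yps, which encodes a Y-box RNA-binding protein, had 3.25 and 3.52. Of the 15 highest peaks, 13 had a region in both libraries, where relative signals ran from 2.36 to 10.5 in replicate 1. All 15 had one in replicate 3, from 2.85 to 11.7. The remaining members of that set were RpL24 and RpS10b, described below, eEF1gamma and TRAM, which had no region in replicate 1, Oatp30B, an organic anion transporter gene (2.36 and 3.14), and the uncharacterised CG10413 (2.84 and 2.85). At 10 of the 13 the value in replicate 3 was the higher one. Summits of 8 of the 15 lay at -79 or further upstream, near the outer end of the window. Those of PNPase, Hsp83, TRAM and CG10413 lay within the gene itself, since the assigned TSS was not its outermost 5′ end.

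**Figure D1:**
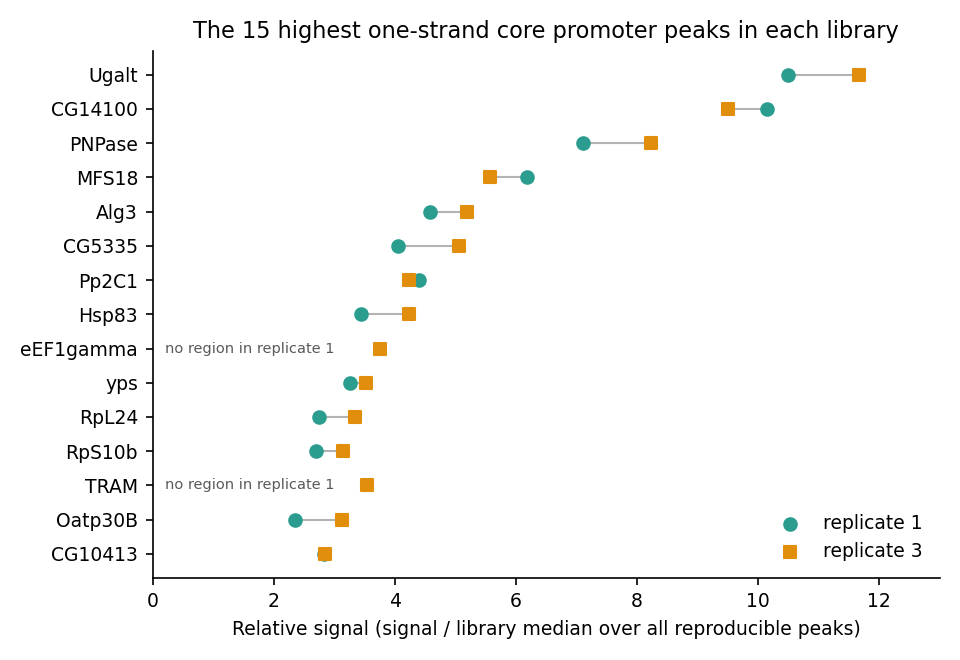
Relative signal of the 15 highest peaks (horizontal axis, signal divided by the library's median over all reproducible peaks) in replicate 1 (circles) and replicate 3 (squares), with a line joining the libraries of a peak. Ugalt, CG14100 and PNPase lie above 7 in both libraries, and eEF1gamma and TRAM have a value in replicate 3 alone.

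As a group the core promoter peaks were lower than peaks further upstream of a TSS. Their median pooled signal was 188 (quartiles 145 and 292, range 127 to 2396), beside 205 over all reproducible peaks. That difference was not kept in every list. The median was 0.918 times that of all peaks in the full list and 0.9 times in the list of replicate 3 alone. The list of a single library was cut here to its 5085 strongest regions. The median was 0.967 times with the outermost 5′ end of each gene as its TSS. Among the highest 25% of peaks it was 1.03 times, and in the list of replicate 1 alone 1.0 times. The pooled median was 248 over the 805 one-strand peaks further upstream, up to 500 bp from the TSS, 178 over the 229 one-strand peaks downstream of the window up to 500 bp, and 238 over the 403 peaks at bidirectional promoters. The median relative signal was 0.866 in replicate 1 and 0.967 in replicate 3, against 1.21 and 1.20 for the one-strand upstream peaks. In both libraries the core promoter peaks were therefore below the upstream peaks in the median. Of the 254 peaks, 54 (21.3%) were among the highest 25% of all peaks, compared with 37.3% of the upstream peaks. The peaks of a list are not replicates, and these differences were not tested.

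Genes of the cytosolic ribosome were the largest group. Of 93 ribosomal protein genes, 37 (39.8%) had a core promoter peak, beside 1.8% of the 13945 protein-coding genes. They were 20 of 54 large-subunit genes and 17 of 39 small-subunit genes, and made up 14.6% of the peaks. RpL24, a large-subunit gene (FBgn0032518, 2L:13394987-13395268), had the highest signal among them, at 2.76 (replicate 1) and 3.35 (replicate 3), a mean of 3.05 ± 0.420 (SD, n = 2). RpS10b, of the small subunit, had 2.69 and 3.14, and RpS4, also of the small subunit, had 2.53 and 3.08. The ranges of these 3 genes over the libraries overlapped, though their order was the same in both. Pooled signals of the family ran from 138 at RpS3 to 674 at RpL24, with a median of 309 where that of the other 217 peaks was 176. The median relative signal was 1.26 in replicate 1 and 1.51 in replicate 3, against 0.806 and 0.929 for the other genes, so the family was the higher group in both libraries. Of the 50 highest core promoter peaks, 14 were at ribosomal protein genes.

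The count of ribosomal protein genes depended on how a one-strand promoter was defined. With no opposite TSS allowed within 1000 bp it was 22, and with the limit at 200 bp it was 54. A reproducible peak at a bidirectional promoter was found for 28 ribosomal protein genes, one upstream for 2, one downstream for 1 and one elsewhere for 1. RpS23 had an upstream peak and one elsewhere beside its core promoter peak. In all, 67 of the 93 had a peak nearest to one of their TSSs. The like shares over all protein-coding genes are not given here, so these counts have no background beside them. RpS14b has a near-identical neighbouring copy, RpS14a, and how reads matching both were placed is not given in the sources used here.

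Summits at the ribosomal protein genes lay close to the TSS. Their median position was -2 (quartiles -24 and 14), from -56 at RpS5a to 33 at RpS2, and 36 of the 37 lay within 50 bp of the TSS. The other 217 peaks had a median of -40, and 128 of them lay within 50 bp. Between -99 and -50 there were 90 peaks, of which 1 was at a ribosomal protein gene. There were 93 from -49 to -1 and 71 from 0 to 49, with 18 ribosomal protein genes in each. In the libraries' own lists, whose summits the selection did not use directly, the median was -14 in replicate 1 (n = 35) and 5 in replicate 3 (n = 37) for the ribosomal protein genes, and -45 and -44 for the others. All 35 ribosomal protein summits of replicate 1 fell inside the window, as did 32 of 37 in replicate 3, the other 5 lying downstream.

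**Figure D2:**
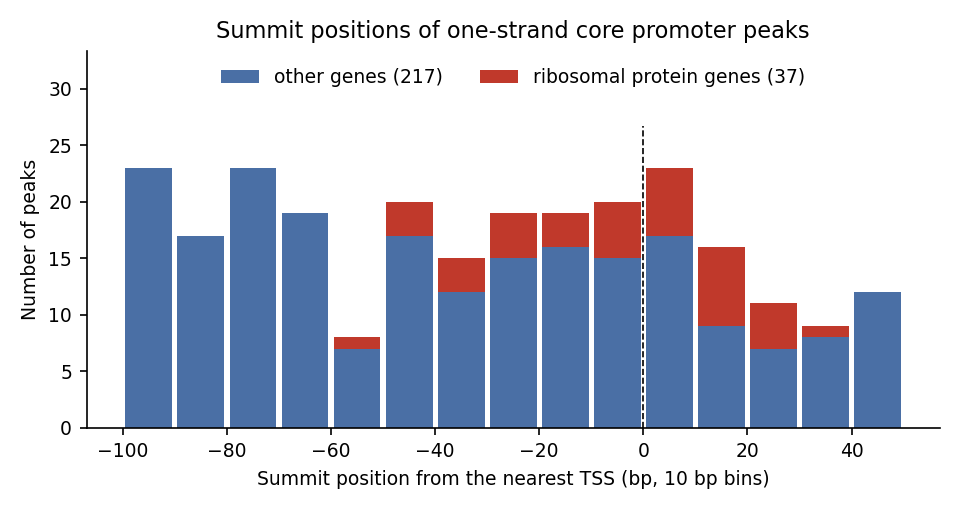
Number of core promoter peaks (vertical axis) by summit position from the nearest TSS in 10 bp bins (horizontal axis, negative is upstream, dashed line at the TSS), with 37 ribosomal protein genes in red and 217 other genes in blue. The bin from -60 to -51 holds 8 peaks, fewer than any other, and all but 1 of the red peaks lie to its right.

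Other genes of translation and of RNA followed in small numbers. Of 51 translation factor genes, 4 (7.84%) had a core promoter peak. The share over all protein-coding genes was 1.8%, and the shares of these lists were not tested against it. At eEF1gamma, a subunit gene of the elongation factor complex (FBgn0029176, 3R:29219982-29220279), replicate 3 stood at 3.75 and replicate 1 had no region. The translocase gene eEF2 had 1.73 in replicate 1 and 1.25 in replicate 3, and eEF1alpha1, whose product brings aminoacyl-tRNA to the ribosome, had 1.06 and 1.34. The fourth, eEF5, had 0.925 and 0.885. Values of eEF2 and eEF1alpha1 overlapped, and both stood above eEF5 in each library. Among 38 splicing and pre-mRNA binding genes, 3 (7.89%) had a peak. They were B52, an SR splicing factor (1.34 and 1.38), sqd, an hnRNP (0.729 and 0.903), and Sf3b3, a subunit of the branch-site complex, with 0.929 in replicate 3 and no region in replicate 1. AlaRS, the alanyl-tRNA synthetase, was the only one of 31 synthetase genes (3.23%), with 0.505 and 0.744.

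Genes of chromatin and of the transcription machinery were present at 2 or 3 per list, shares between 6.82% and 7.69% beside 1.8% of all protein-coding genes, which was not tested. Of 44 genes of RNA polymerase II and the general factors, 3 had a peak: Polr2F, a polymerase subunit (0.620 in replicate 1 and 1.18 in replicate 3), TfIIA-S, a subunit of TFIIA (0.844 and 0.798), and TfIIEbeta, with 0.698 in replicate 3 alone. Of 26 insulator and architectural protein genes, 2 had one. BEAF-32, whose product binds sites with the DRE core, had 1.23 and 0.841, and CTCF had 1.23 in replicate 3 and no region in replicate 1. Of 29 polycomb and trithorax genes there were also 2, ph-d (0.773 and 0.911) and Psc (0.806 and 0.854), both subunits of the polycomb complex PRC1. The gene ph-d has a near-identical neighbour, ph-p, so its assignment is uncertain. None of these peaks exceeded 1.23 in either library.

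Hsp83 was the only one of 37 heat shock and chaperone genes (2.7%, beside 1.8% of all protein-coding genes). From 35 cytoskeleton genes there were 2 (5.71%), alphaTub84B (1.37 in replicate 1 and 0.962 in replicate 3) and betaTub56D (0.451 and 0.678). Both belong to a family of similar genes. From 50 DNA damage genes there was 1 (2.0%), the mismatch repair gene spel1, with 1.42 and 1.38. Its pooled signal of 131 was low, and its region in each library also covered a higher neighbouring peak, as was so for 8 of the 254 peaks. No core promoter peak was found at any of 73 mitochondrial ribosomal protein genes, 28 of ribosome biogenesis, 48 of the proteasome, 84 of the respiratory chain, 25 of dynein and dynactin, 49 of membrane traffic, 38 of the cell cycle or 29 segmentation and Hox genes. With 1.8% of all protein-coding genes in the set, lists of these sizes would each hold few members, and the zeros were not tested.

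The libraries differed more at the core promoter peaks than over all peaks, as they also did at the one-strand downstream peaks. Of the 254, 234 had a region in both libraries and 20 (7.87%) had none in replicate 1, beside 3.44% of all reproducible peaks. The share was 6.99% for the one-strand downstream peaks, 14.6% at bidirectional promoters and 3.23% upstream. None of the 254 lacked a region in replicate 3. The highest of those 20 were eEF1gamma, TRAM, an endoplasmic reticulum membrane protein gene (X:935223-935458), with 3.54 in replicate 3, and RpL27A with 1.79. Among the 30000 regions listed for each library, 160 of the 254 (63.0%) were matched by a region ranked in the top 5085 of both, beside 75.4% of all peaks, 62.9% of the downstream ones, 69.2% of those at bidirectional promoters and 80.5% of the upstream ones. By library, replicate 1 held 181 (71.3%) among its top regions and replicate 3 held 229 (90.2%), where the shares over all peaks were 84.8% and 88.7%. The shortfall therefore lay in replicate 1. For ribosomal protein genes, 31 of 37 were in the top regions of both libraries.

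The log2 ratio of replicate 3 to replicate 1 had a median of 0.19 over the 234 peaks, and 160 (68.4%) were higher in replicate 3, where over all peaks the median was 0.03 and the share 53.2%. It was 0.18 for the one-strand downstream peaks, 0.03 for the upstream ones and 0.01 at bidirectional promoters. For the ribosomal protein genes it was 0.28, with 29 of 35 higher in replicate 3 and a range from -0.82 at RpL10Ab to 0.90 at RpS23. Differences above 1 on the log2 scale were found at 19 of 234 peaks (8.12%), beside 4.32% of all peaks. The share was 10.8% for the one-strand downstream peaks, 5.79% for the upstream ones and 5.25% at bidirectional promoters. None of the 35 ribosomal protein genes was among the 19. Of the 19, 17 were higher in replicate 3, which was so for 2.77% of all peaks, and 2 in replicate 1. When the relative signal was taken from the median of the core promoter peaks instead, the median ratio was 0.03, 123 of 234 were higher in replicate 3, and 11 and 3 peaks passed the same difference. With 1 library on each side there is no replicate check of these differences.

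The largest difference was at the uncharacterised gene CG9471 (3R:9771544-9771707), which stood at 0.251 (replicate 1) and 1.53 (replicate 3), a log2 ratio of 2.60. Its region in replicate 1 ranked 23006 of the 30000 listed, which include background, and had its own summit at -304, away from the peak summit at -88. CG3760 had 0.240 and 0.771 (1.69). The gene emc, which encodes an inhibitory helix-loop-helix protein, had 0.421 and 1.31 (1.64). CG10939 had 0.355 and 1.08 (1.61), and dlg1, a gene of a cell junction scaffold, had 0.276 and 0.782 (1.5). All 5 were higher in replicate 3, and in replicate 1 all 5 were below the median peak, with regions ranked between 9291 and 24954. The 2 peaks higher in replicate 1 were Aps, with 0.723 and 0.328, and CG7115, with 1.04 and 0.472, both with a log2 ratio of -1.14. Among the 15 highest peaks with both values, none differed by that much, the widest being Oatp30B with 0.41.

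**Figure D3:**
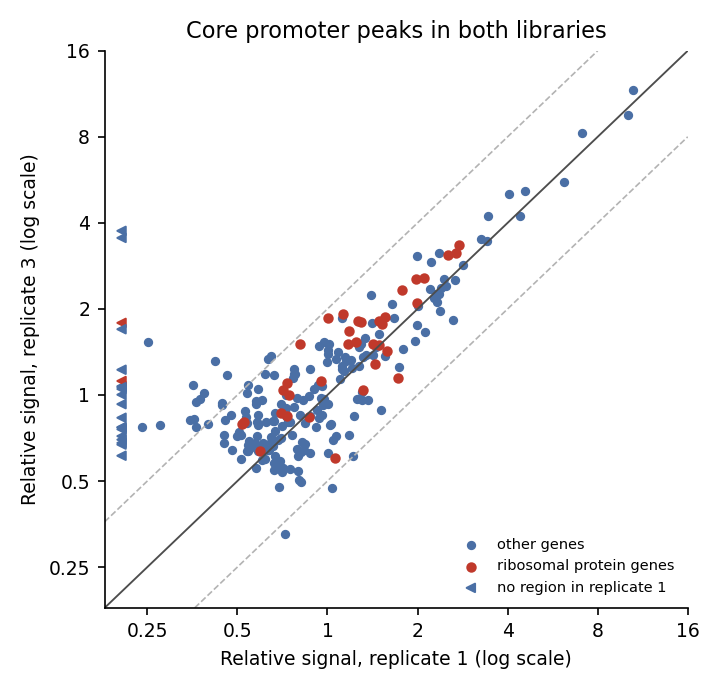
Relative signal of each core promoter peak in replicate 1 (horizontal) and replicate 3 (vertical), both on log scales, with ribosomal protein genes in red and other genes in blue. The solid line marks equal values and the dashed lines a log2 difference of 1. Triangles at the left edge are the 20 peaks with no region in replicate 1, and 160 of the 234 others lie above the solid line.

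The sequence under the summits was poorer in A and T than at other peaks. The 101 bp centred on the summit had a median A+T content of 57.4% (quartiles 49.8% and 64.4%), beside 67.3% over all reproducible peaks, 69.3% at one-strand upstream peaks, 63.4% at downstream ones and 70.3% at bidirectional promoters. In 103 of the 254 (40.6%) the summit window was richer in A+T than the mean of the windows 300 bp to either side, which was so for 76.6% of all peaks. For ribosomal protein genes it was 5 of 37 (13.5%), with a median of 55.5% at the summit and 61.4% in the flanks. The extremes were RpS5a with 37.6% and CG3777 with 84.2%.

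A+T content moved with the position of the summit. It was 63.4% in the median for summits from -99 to -50, 55.5% from -49 to -1 and 53.5% from 0 to 49. Without the ribosomal protein genes the values were 64.4% (n = 89), 55.5% (n = 75) and 51.5% (n = 53). At 12490 one-strand protein-coding TSSs with no summit within 1000 bp, windows centred at -75, -25 and 25 had medians of 59.4%, 56.4% and 56.4%. The other genes' peaks were thus above the unbound TSSs in the outer window and below them in the others, by less than the unbound TSSs' own quartile range (50.5% to 66.3% at -75). The 50 highest peaks had a median of 58.4% and the other 204 one of 57.4%. Among the highest peaks, MFS18 (78.2%), CG14100 and Oatp30B (both 70.3%) were rich in A+T, and yps (44.6%), Pp2C1 (48.5%) and RpS10b (49.5%) were not.

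**Figure D4:**
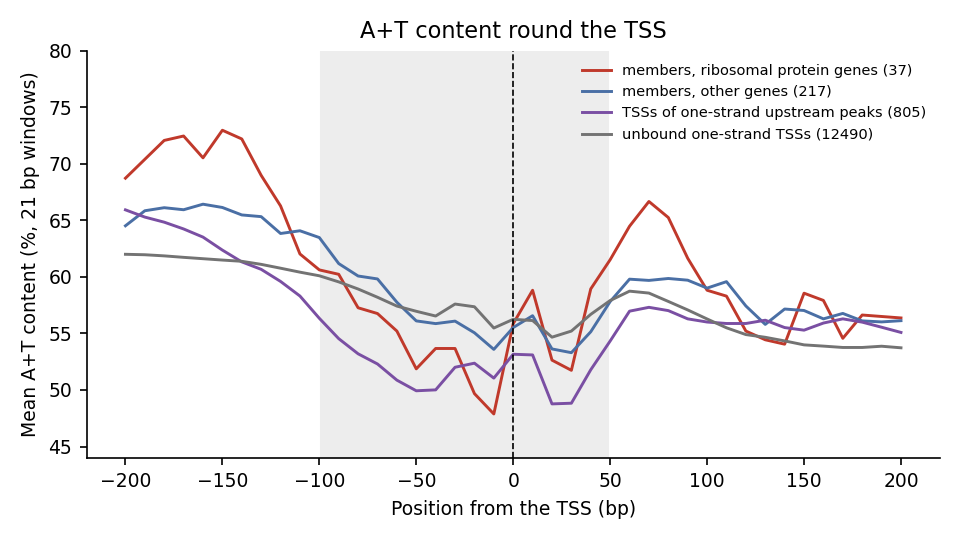
Mean A+T content in 21 bp windows (vertical axis, %) by distance from the TSS in bp (horizontal axis, shaded where summits were selected, dashed line at the TSS) for the TSSs of ribosomal protein members, other members, one-strand upstream peaks and unbound one-strand TSSs. At -150 the lines stand at 73.0%, 66.1%, 62.4% and 61.5% in that order, and at -10 at 47.9%, 53.6%, 51.1% and 55.5%.

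The core promoter elements differed between the ribosomal protein genes and the rest. A match to one of the TCT words given above was found at 30 of the 37 (81.1%), in 44 matches with a median start at 5 bp of the annotated TSS. It was found at 10 of the 217 others (4.61%) and at 3.02% of all 19253 protein-coding TSSs. Peaks whose TSS held a match had a median pooled signal of 291, and those without one 178, but 30 of these 40 peaks are the ribosomal protein genes. The 10 others included Oatp30B, eEF2, Sf3b3 and pAbp, the gene of the poly(A)-binding protein. The initiator words TCAGT and TCATT, starting from -10 to 10 on the sense strand, were at 0 of 37 ribosomal protein genes and at 44 of the others (20.3%), beside 18.9% of all TSSs. The sequence TATAAA at -45 to -15 was at 10 of the 254 (3.94%), beside 7.77% of all TSSs. The share was likewise below that of all TSSs for upstream (4.1%), downstream (3.06%) and bidirectional (1.74%) promoter peaks. MFS18, Hsp83, alphaTub84B and emc were among the 10 members with TATAAA.

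The DRE word TATCGATA, on either strand from -100 to 50 bp, was at 31 of the 254 (12.2%) and at 6.27% of all TSSs. It was at 10 of the 37 ribosomal protein genes (27%) and at 9.68% of the other members. At the TSSs of bidirectional promoter peaks the share was 12.7%, but at those of one-strand upstream peaks 1.86%. The same stretch round the TSS was searched in each group, and the upstream peaks' summits mostly lay outside it (median -245). Alg3, eEF1gamma, RpS10b and RpS15Aa were the highest members that held the DRE word. Over the same stretch and on both strands, Motif 1 (GGTCACAC) was at 5.91% of the members and 5.55% of all TSSs. Pp2C1 was the highest member with it. It was at 16.2% of the ribosomal protein members and 4.15% of the other members. Motif 6 (GTATATTT or GTATTTTT) was at 7.09% of the members, among them RpL24 and RpS4, and 6.20% of all TSSs. It was at 24.3% of the ribosomal protein members and 4.15% of the other members. CAGCTG, an E-box, was at 13.8% of the members and 11.7% of all TSSs, and AATATTTA at 3.54% and 3.10%. GAGAG, a word of the GAGA factor's sites, was at 24.8% of the members against 42.1% of the upstream peaks' TSSs and 20.5% of all TSSs. DRE and TCT words were found together at 8 members, and 84 members (33.1%) held none of the 9 elements in these windows. The like shares were not computed for other TSSs, so neither count has a background beside it. A match describes letters and not binding by a factor.

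**Figure D5:**
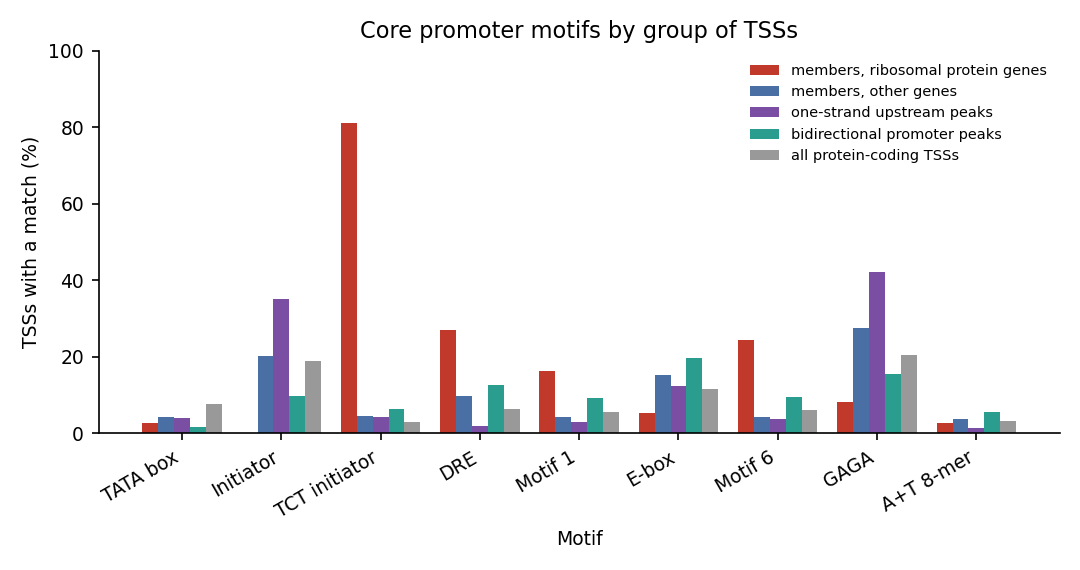
Share of TSSs with a match to each element (vertical axis, %) for ribosomal protein members, other members, one-strand upstream peaks, bidirectional promoter peaks and all protein-coding TSSs. The TCT initiator stands at 81.1% in the ribosomal protein members and below 7 in the other groups, and the initiator is at 0 in the ribosomal protein members.

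The words within the summit windows gave a similar picture. Of the 254 windows of 101 bp, 41 (16.1%) held TATCGA or its complement, beside 3.94% of the windows 300 bp away. The share was 5.09% at one-strand upstream peaks, 12.9% at bidirectional ones and 11.7% at unbound TSSs centred at -25. Of the 41, 13 were at ribosomal protein genes. The other 28 were 12.9% of the other members, close to the share at unbound TSSs. The word CCGGAA was in 27 windows (10.6%), of which 16 were at ribosomal protein genes, beside 3.15% of the flanks and 2.37% of unbound TSSs. AACACT was in 34 (13.4%), none of them at a ribosomal protein gene, beside 5.12% and 7.09%. These words were picked from the 8 leading ones when members were set beside their flanks, so their shares in members and flanks are a description.

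By annotation, 105 summits (41.3%) lay between genes, 96 (37.8%) in an exon of the assigned gene and 42 (16.5%) in its introns, with 11 in an exon or intron of another gene. The TSS was the outermost 5′ end of the gene at 156 peaks (61.4%). Of the 254, 84 (33.1%) were at genes with a single annotated TSS, which is so for 73.5% of protein-coding genes. Genes with more TSSs offer more positions to the selection. A non-coding TSS of the opposite strand lay within 500 bp at 11 peaks. By chromosome, 55 peaks were on 2L, 47 on 2R, 56 on 3L, 55 on 3R, 38 on X and 3 on chromosome 4.

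At the upstream end of the window, Hsp83 and larp were just inside at -99, with pooled signals of 834 and 208, and Syx17 and CG12316 just outside at -100, with 204 and 139. At the downstream end, zf30C (46, 206) and HmgD (47, 134) were inside, and CG34355 (50, 203) and Dgk (51, 187) outside. Replicate summits moved across such limits. In replicate 1, 181 of 234 summits (77.4%) fell inside the window and in replicate 3, 217 of 254 (85.4%). The distance between the libraries' summits had a median of 21 bp, and at 163 peaks both were inside.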

How the data were processed

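The dm6 lists were used: the authors' reproducible (IDR) list, and the relaxed lists of replicate 1 and replicate 3, with 30000 regions each, and of both together. The signal of each peak was deposited by the authors, and its scale is not the same in each list. Summit offsets, in bp from a peak's start, were also deposited by the authors. No aligner, peak caller or version is named in the sources used here. Lists in dm3 were not used. Gene models on 6 chromosomes, without transposable elements, were those of BDGP 6.54 in Ensembl release 115, and sequence came from the RefSeq release 6 assembly, whose chromosome lengths held all peaks. A library region was matched to a peak by an overlap of at least 1 bp. Python 3.11.15, numpy 2.4.6 and pandas 2.3.3 were used, and the position rule was tested on simulated data. Peaks were counted and described, with no p-value or test across them. The members and the 18 gene lists were chosen with earlier results of these data known. In these lists 7 symbols matched no gene, and the ribosomal protein list was widened to hyphenated symbols after the files were seen. Named genes were the 15 highest members, the 3 highest of each list, the 5 largest differences between libraries, the 3 highest with no region in a library, and those at the ends of the window. Other genes, among them eEF5, pAbp, Aps, CG7115, MEP-1, Sarm, pyd and the other ribosomal protein genes, were named after their values were seen. At 3 peaks, those of RpS27A, CG33111 and MEP-1 (summit at -93), the TSSs of several genes were equally near. A protein-coding one was taken, the first by gene identifier where there were several. Another protein-coding gene's TSS lay within 500 bp at each, Ip259, eIF4G2 and CG42245 in that order. These assignments, and the counts that hold them, are therefore uncertain.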

Additional observations from a re-analysis of the deposited data

How the results depend on the processing

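No paired analysis was possible because the samples form a single group. With the highest 25% of peaks alone, the count of core promoter peaks was 54, their share 4.25%, their median signal 1.03 times that of all peaks (0.918 in the full list), their median position -35 and the ribosomal protein genes 17. With the outermost 5′ end of each gene as its TSS, the count was 161 and the share 3.17%. With summits within 49 bp of the TSS, it was 164. With the opposite strand free for 1000 bp, there were 22 ribosomal protein genes. The list of a single library, leaving out replicate 3 or replicate 1, was cut to its 5085 strongest regions. From it the count was 190 to 332, the share 3.74% to 6.53% and the relative median signal 0.9 to 1.0. The ribosomal protein genes were 31 to 36, the median A+T content 54.5% to 58.4% and the median position -34 to -29. Of the 251 genes, the list of replicate 3 alone shared 200 (79.7% of these, 61.2% of its own) and that of replicate 1 alone 145 (57.8% and 76.7%). With the top 3000 regions of each library, 100 peaks were in both. Over the whole stretch from -100 to 50, TATA matches were at 8.27%, initiator matches at 35.8% and TCT matches at 29.9%. Of 41 alternative values, 18 moved and 23 stayed within their limit. The limit was 1.5 times for counts and the Wilson interval for shares. For medians it was the SD of the values from the single-library lists. The limits differ in width, since the single-library counts stayed and the same counts as shares moved. The tally is therefore not a measure of stability. The causes were not tested beyond the smaller or larger sets that these settings make. Depth is unknown, so no limit from it can be given.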

Other observations

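The peak at Pp2C1, the seventh highest of the set, was the neighbour of the peak at ctp, the highest of all reproducible peaks. Its summit at X:4686915 lay 1165 bp from that of ctp at X:4688080, with 69 bp between the ends of the peaks. The pooled signal at ctp was 26348, 28.5 times that at Pp2C1. Relative signals at Pp2C1 were 4.39 in replicate 1 and 4.23 in replicate 3.

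Over all 254 members, the median distance from a summit to the nearest other reproducible peak was 3903 bp, and 42 (16.5%) had one within 1000 bp. Another protein-coding gene's TSS of the same strand lay within 500 bp at 6 peaks. At Sarm, a gene of axon degeneration, the summit at -62 had a pooled signal of 148 but relative signals of 1.64 and 2.08, and its region in both libraries also covered a higher peak.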
